A study of Rattus norvegicus with 232 samples.

Results

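The genes of the cytosolic ribosomal proteins were examined in rat brain. The members were the rows of the RefSeq gene table whose symbol starts with Rpl or Rps and a digit, or is Rpsa or a Rplp name, with pseudogene names (-ps) and the Rps6k kinases left out. This rule took 94 of 20859 genes, 56 named for the large subunit and 38 for the small subunit. It used the names only and no measured value. It also took Rps19bp1, which codes for a protein that binds Rps19 and is not part of the ribosome, and it missed genes such as Fau and Rack1, which code for ribosomal proteins under other names. No row was removed for a low value, so all 94 members were tested.

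Total RNA of brain, depleted of ribosomal RNA, was sequenced with a stranded kit from rats of 74 strains of the Hybrid Rat Diversity Panel, and the table holds 214 libraries of 197 animals. All strains were inbred, the animals of a strain were near-identical in genotype, and the labels give no genetic modification. The labels give whole brain as the tissue of every sample, no treatment where the field is filled, and male where the sex is given. The study's methods name young adult males and a brain divided along the midline, of which a single side was used.

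The strains fall into 3 sets. The HXB/BXH family holds 30 recombinant inbred strains (88 animals), bred from BN-Lx/Cub and SHR/OlaIpcv. The FXLE/LEXF family holds 19 recombinant inbred strains (43 animals), bred from F344/Stm and LE/Stm. The other 25 are classic inbred strains (66 animals), which include those 4 progenitors. Within a strain there were 3 animals in 54 strains, 2 in 15 strains and 1 in 5 strains. The batch given by the labels took 17 values, and 62 strains had libraries in 2 or more batches.

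Ribosomal proteins assemble with ribosomal RNA into the small subunit, which reads the mRNA, and the large subunit, which joins amino acids. Cells keep their amounts matched, and their mRNAs are known for a run of pyrimidines (C or T) at the transcription start, the 5' terminal oligopyrimidine or TOP motif, through which the mTOR pathway sets their translation. Mammalian genomes hold many retroposed copies of these genes, some named as pseudogenes and some as genes, and reads from near-identical copies are hard to assign.

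Start sites are given for genes that the results return to, to show how the pyrimidine runs near them differ. RefSeq promoter sequences (build GRCr8) matched 71 of the 94 members by symbol. For Rpl37 this took the gene of that name in GRCr8, which has a row of its own under another name, described below. Each line gives the 30 bases around an annotated start, 15 on either side, 5' to 3' on the strand of the gene, with the longest run of C and T in capitals.
Rplp0, chr12:46718376-46718405, minus strand: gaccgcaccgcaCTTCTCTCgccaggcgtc
Rpl13a, chr1:104748899-104748928, minus strand: CCTCTTCCTTTCCTaggcggctgccgaaga
Rpsa, chr8:128728864-128728893, plus strand: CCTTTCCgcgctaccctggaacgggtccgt
Rps6, chr5:106420526-106420555, minus strand: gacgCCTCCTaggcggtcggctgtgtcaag
Rpl7a, chr3:30637121-30637150, plus strand: CTCTCCTCCagccgagcaagatggtgagtg
Rps12, chr1:23500060-23500089, plus strand: gcacagaagCCCagcagagcgcttaaatac
Rpl37 as named in GRCr8, chr2:55942930-55942959, plus strand: tggtaggcgtaCTTTCTCTTCCggtctctt

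The longest run was 14 bases in Rpl13a, 11 in Rpl37 as named in GRCr8 and 3 in Rps12. Of the 7 runs printed, those of Rplp0 and Rpl37 span the annotated start, and the others end before it. A run of 8 or more C or T within the 30 bases was found in 41 of the 71 members (57.7%) and in 11.4% of all 33469 promoters of the table. Short pyrimidine words, read on the strand of the gene only and free to overlap, were also searched in that window. CTTTC was present in 39.4% of members and 3.59% of promoters. TCTTT was present in 29.6% of members and 3.75% of promoters. C was the first transcribed base in 47.9% of members and 24.1% of promoters. Over the full 300 bases on both strands, CCGGAAG, the letters of an Ets-family site, occurred in 29.6% of members and 8.75% of promoters, and AAGATGGC, part of a YY1 site, in 9.86% and 3.17%. Rpl8, Rps25 and Rpl30 had no entry.

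The values are log2 values as deposited, so a difference of 1 is a change of 2-fold on that scale. The study's methods describe adjustment for technical effects in the earlier v5 tables. The steps behind the v7.1 values were not established here. Read depth is unknown because no counts are given, and a level is not comparable between genes without their lengths, which were found for only 75 of the 94 members. The medians of the libraries lay between 8.18 and 8.42. The neuron markers (5 of 5 in the table) had mean levels of 13.88 to 14.17 over strains. The liver markers (6 of 6) were at 6.90 to 18.01, with a median of 7.60, the highest in LE/Stm, and Y-linked Eif2s3y was at 9.37 to 9.55 in LEW/Crl against a median of 10.63 in the other animals, whose lowest was 9.07. LE/Stm and LEW/Crl were left out in an alternative, together with F344/NCrl and SHRSP/A3NCrl, for which no such value is given here, and it called 24 members in place of 25 for the strain effect described next.

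The mean level of a member over strains ran from 2.04 (Rps15al1) to 13.52, with a median of 11.85 against 8.32 for all genes. A mean of 10 or more was found for 75 members, and 12 were under 6. These low members were mostly paralogs and retrocopies, among them Rps15al1, Rpl3l, Rpl39l, Rpl34l1 and Rps10l1. In bulk tissue, fewer cells of a type and less RNA per cell cannot be told apart.

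To compare strains, the variation of each member was divided into a part between and a part within strains. R2 is the share of the sum of squares over the 197 animals that lies between the 74 strains. With few animals per strain this share is not small even without a strain effect, and that level was not estimated. The median of R2 was 0.433 over members (0.289 to 0.921) and 0.451 over all genes. The moderated F-test of limma with Benjamini-Hochberg adjustment over all 20859 genes called 25 of the 94 members (26.6%). The background for the same call was 37.3% of genes, and the order of the 2 shares depended on the fit. With batch as a covariate 76.6% of members and 70.9% of genes were called, in a fit over 213 libraries with the animal as a block, so that the unit changed along with the covariate. Without the library of SHR/OlaIpcv animal 1 in batch 11 that fit called 72.3% and 68.2%. The fit over animals gave 26.6% of members and 37.3% of genes without this library too. In the Ensembl tables the shares were 35.1% against 32.3% in v6 and 68.4% against 63.6% in v5. These tables held 74 and 57 of the 94 members. Their strains and animals were not matched to those of v7.1, so more than the annotation can differ. An R2 of 0.6 or more was found for 12 members (12.8%) against 10.2% of genes. Between large-subunit and small-subunit names the counts were 15 of 56 and 10 of 38.

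The 8 members with the lowest adjusted p were Rpl37, Rpl7a, Rps12, Rps25, Rps15al4, Rpl30, Rpl8 and Rpl10l. Rpl7a was not called in the v6 and v5 tables (adjusted p 0.0796 and 0.1). The proteins of the ribosomal stalk were not called without batch in the fit: Rplp0, which carries the stalk of the large subunit, had strain means of 12.44 to 13.29 with a within-strain SD of 0.199 (adjusted p of the limma F-test 0.198). Its partners Rplp1 and Rplp2 had strain means of 12.11 to 12.92 (adjusted p 0.442) and 10.72 to 11.35 (adjusted p 0.161). With batch as a covariate all 3 were called (adjusted p 0.000738 for Rplp0, 0.0115 for Rplp1 and 0.000439 for Rplp2). Rpl7l1, a relative of Rpl7 that acts in ribosome assembly, had the smallest range of any member, 11.11 to 11.37.

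Of the core members fixed for naming, only Rpl13a was called without batch in the fit (12.9 to 13.37, adjusted p 0.0239), a protein whose locus also hosts small nucleolar RNAs. Rps18 (11.37 to 12.29, adjusted p 0.0602), Rps6 (12.02 to 12.76, adjusted p 0.076), Rpl10 (12.6 to 13.06, adjusted p 0.0899), Rpl11 (11.55 to 12.37, adjusted p 0.161), Rpsa (12.77 to 13.39, adjusted p 0.164), Rpl5 (12.5 to 13.11, adjusted p 0.252), Rpl41 (12.52 to 13.17, adjusted p 0.274) and Rps3 (12.69 to 13.3, adjusted p 0.352) did not pass. With batch as a covariate all of these but Rpl5 passed, with adjusted p of 0.000322 (Rps18) to 0.0253 (Rpl11), and Rpl5 was at 0.0563. Among the fixed paralogs and unusual names, Rpl10l, Rpl39l and Rps4y2 were called. Rpl39l ran from 2.48 to 3.55 (adjusted p 9.27e-09) and Rps4y2, a relative of the X-linked Rps4x, from 4.91 to 6.21 (adjusted p 4.49e-06). Rpl36al (10.21 to 10.79), Rpl22l1 (9.80 to 10.6), Rps4x (12.62 to 13.21), Rps27l (7.77 to 8.27), a p53 target, Rps27a (12.61 to 13.27), made as a fusion with ubiquitin, Rpl3l (1.85 to 2.54) and Rps19bp1 (4.36 to 5.14) were not, with adjusted p of 0.0749 to 0.49. With batch as a covariate Rps4x (0.0161), Rpl36al (0.0408) and Rps27l (0.045) passed, and the others were at 0.067 to 0.593. Rpl26l1, also fixed for naming, had no row under that symbol.

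**Figure D1:**
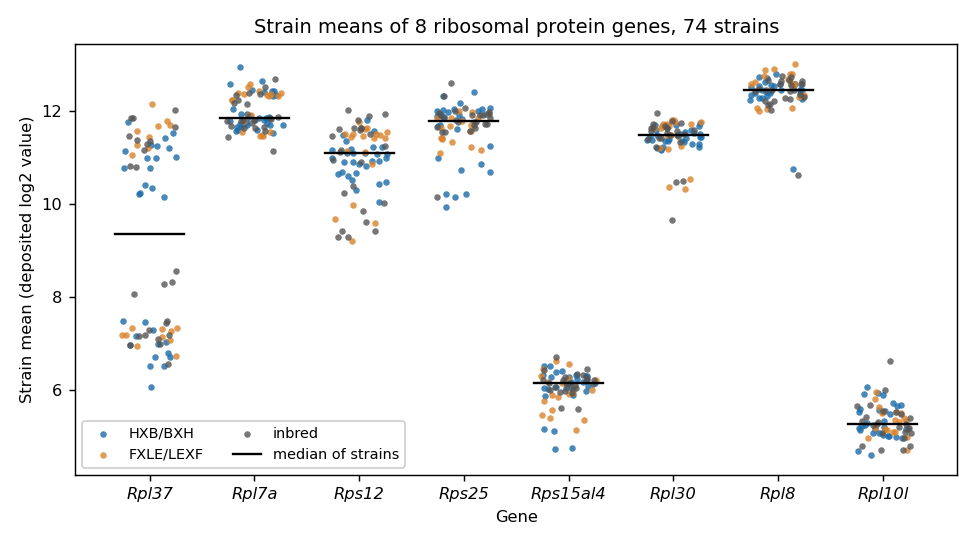
Strain means of the 8 members with the lowest adjusted p for the strain effect (y axis, deposited log2 value). Each point is 1 of 74 strains, coloured by set, and the line is the median of strains. Rpl37 forms bands on either side of an empty stretch from 8.55 to 10.15, Rps12 and Rps25 have tails downward, and in Rpl8 only BUF/MnaMcwi and BXH2/Cub lie apart, at 10.63 and 10.76.

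Rpl37, a zinc-binding protein of the large subunit, had the highest R2 (0.921, adjusted p 2.4e-42). Its strain means were 6.06 at the lowest, in HXB21/Ipcv, 9.35 at the median and 12.16 at the highest, in FXLE18/Stm, and the within-strain SD was 0.766. The strains fell into 2 bands of 37 strains each, from 6.06 to 8.55 and from 10.15 to 12.16, with no strain mean between them. Of the 197 animals, 9 lay on the other side of the middle of the gap (9.35) from their strain's band. The upper band held 17 of the 30 HXB/BXH strains, 9 of the 19 FXLE/LEXF strains and 11 of the 25 classic strains. BN-Lx/Cub (10.82) and all 3 F344 substrains (10.80 to 11.86) were in the upper band, and SHR/OlaIpcv (7.49), LE/Stm (6.56) and both LEW substrains (6.98 and 7.43) in the lower. SHRSP/A3NCrl, at 8.55, was the lower-band strain nearest to the gap.

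The row whose strain means were most opposed to Rpl37 was LOC120093056, which in the GRCr8 RefSeq table is itself named Rpl37, while Rpl37 is there an older symbol of another gene, Rpl37l1. The start sequence printed above for Rpl37 belongs to this gene. In the 37 strains low for the Rpl37 row, LOC120093056 had strain means of 10.43 at the lowest, 11.3 at the median and 12.12 at the highest. In the 37 strains high for it, they were 6.56, 7.20 and 8.03, so the 2 sets of strains did not overlap in either row. The correlation was -0.99 over 74 strain means and -0.752 over deviations of animals from their strain mean. When both rows were added on the linear scale, the SD of the log2 sum between strains was 0.394, against 2.10 for Rpl37 and 2.07 for LOC120093056, and the sum ran from 10.42 to 12.19. Values of the Rpl37 row are therefore given below as those of the row with this name, since how reads were divided between the near-identical copies was not tested.

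**Figure D2:**
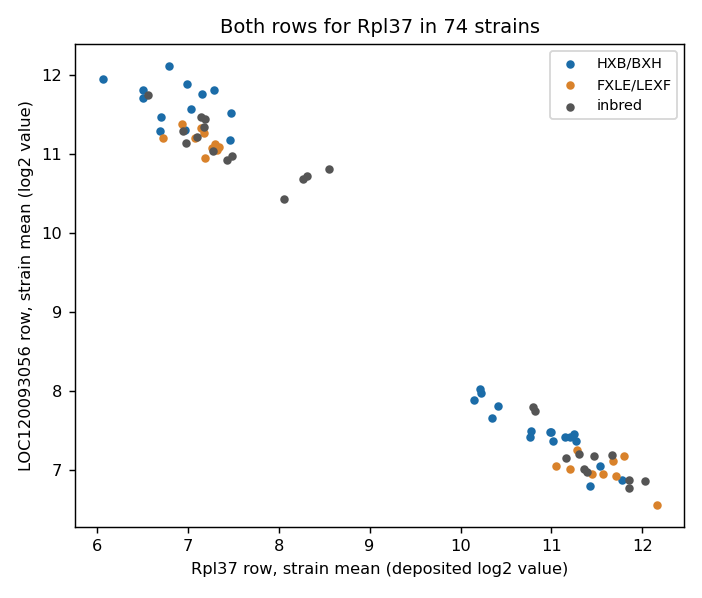
Strain means of the Rpl37 row (x axis) against those of LOC120093056, named Rpl37 in GRCr8 (y axis), both deposited log2 values, for 74 strains coloured by set. The 37 strains under 8.55 on the x axis are all at 10.43 or more on the y axis, and the 37 strains over 10.15 are all at 8.03 or less.

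The 12 rows that correlated most with Rpl37 in size, in either direction, were then named. Beside LOC120093056 they were Zmynd15 (-0.673), Eral1, Pipox, LOC688778, P2rx1, Rnf135, Sox15 (0.59), Slc2a4, Ccdc42, Aloxe3 and LOC108352110, over 74 strain means. In GRCr8, 9 of the 12 rows lie on the chromosome of Rpl37l1, which holds 8.1% of the 19539 rows with a chromosome there. The 12 rows were chosen for their correlation. The strain means share libraries and relatedness, so these correlations are descriptions.

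Some other members also had an opposed row that is a copy of the gene. Among the 8 members above and Rps14, which was added after its values had been seen, the row with the lowest correlation over strain means was a copy of the same gene in 5 of 9. For Rpl7a, a large-subunit protein that binds RNA, the row was LOC120097345, a pseudogene named Rpl7a-ps36 in GRCr8 (r -0.921). That row ran from 5.96 to 12.23 over strains and Rpl7a from 11.14 to 12.95, and the SD of the summed level was 0.178 against 0.383 for Rpl7a alone. Rps25 was opposed by LOC685085 (Rps25l3, r -0.744, SD of the sum 0.227 against 0.538), Rpl30 by LOC100362027 (Rpl30l2, r -0.744, 0.33 against 0.389), and Rps14 by LOC100911847 (Rps14-ps7, r -0.702, 0.169 against 0.52). Within strains these 4 pairs were not opposed as Rpl37 was, with r of 0.02 for Rpl7a, -0.06 for Rps25, 0.05 for Rpl30 and -0.27 for Rps14. Summing lowered the spread between strains by the least in Rpl30. In Rps12, Rps15al4, Rpl8 and Rpl10l the lowest correlation, from -0.579 to -0.44, was with a row that is no copy of the gene. A smaller spread of the sum was not particular to copies, since Rpl10l summed with its opposed row Cyb5rl had an SD of 0.158 against 0.368 alone. In all, 66 rows of the table named by LOC and a number carry a ribosomal protein symbol in GRCr8, and 12 member symbols are there also an older symbol of another gene, so levels of these members are uncertain where copies can share reads.

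The next comparison asked which members stood apart in single strains. A member was called when a strain differed from the mean of the others by at least 1 on the log2 scale, at a Benjamini-Hochberg adjusted p under 0.05 over all genes and strains together. This held for 10 members (10.6%) in at least 1 strain, against 1.95% of genes. In 1 direction each, 6 members were higher in a strain (background 1.53%) and 6 were lower (background 0.810%). Of the 90 pairs of strain and member called, 60 were of Rpl37, and the other 30 pairs came from 9 members, 9 pairs higher and 21 lower. Those 9 were Rpl8, Rpl10l, Rpl30, Rpl35al1, Rps10l1, Rps12, Rps14, Rps15al4 and Rps25. As given above, the most opposed rows of Rpl30, Rps14 and Rps25 were copies. How reads were divided between these members and their copies in the called strains was not tested.

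For Rpl37 the largest differences each way were in HXB21/Ipcv, whose animals had 5.75, 6.03 and 6.41 (difference -3.18 ± 0.44 SE, adjusted p 6.61e-08), and FXLE18/Stm, with 11.77 and 12.55 (3.00 ± 0.54, adjusted p 7.29e-05). These are the ends of the 2 bands.

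Rpl8, a large-subunit protein near the peptidyl transferase centre, was at 10.63 to 13.03 over strains with a median of 12.46. In the 3 BXH2/Cub animals it was at 10.49, 10.6 and 11.21 (difference -1.69 ± 0.13 SE, adjusted p 4.45e-20). In the only BUF/MnaMcwi animal it was at 10.63 (-1.83 ± 0.23, adjusted p 2.29e-09), where the error assumes that a lone animal varies like those of the other strains. All other strain means were 12 or more, and every animal lay on its strain's side of the middle of the gap, 11.38.

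Rpl30, an RNA-binding protein of the large subunit, was at 9.48 and 9.84 in the 2 COP/CrCrl animals, against a median of 11.5 over strains (-1.79 ± 0.17, adjusted p 2.26e-14). It was also called lower in LEXF10B/Stm (mean 10.32) and LEXF7B/Stm (10.37). COP/CrCrl lay below every other strain, with 0.658 to the next.

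Rps12, a protein of the small-subunit head region, had strain means of 9.21 at the lowest, 11.11 at the median and 12.02 at the highest. Its lowest values were in FXLE17/Stm, with animals at 8.94, 9.04 and 9.65 (-1.76 ± 0.25, adjusted p 1.46e-07), and in F344/NCrl, at 9.12 and 9.44 (-1.68 ± 0.30, adjusted p 9.36e-05). It was called lower in 7 further strains, which were LEW/Crl, M520/N, FHH/EurMcwi, LEXF6B/Stm, PVG/Seac, LEXF8A/Stm and SS/JrHsd (means 9.30 to 9.84), and higher in WKY/NCrl (11.95). Substrains were not alike in value: LEW/Crl had a mean of 9.30 ± 0.21 (SD, n = 3), and LEW/SsNHsd 10.24 ± 0.34. F344/NCrl, at 9.28, was lower than F344/Stm, at 10.02, and F344/NHsd, at 10.38. The libraries of LEW/SsNHsd and F344/NHsd all came from batch 11 and those of F344/Stm from batch 13. The difference between substrains, and the part of batch in it, was not tested.

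Rps25, a small-subunit protein used in initiation at internal ribosome entry sites, had strain means of 9.94, 11.8 and 12.61 at the lowest, median and highest. BXH12/Cub animals were at 9.28, 9.78 and 10.77 (-1.73 ± 0.19, adjusted p 1.59e-11), and HXB5/Ipcv animals at 9.33, 10.46 and 10.65 (-1.52 ± 0.19, adjusted p 2.82e-09). It was also called lower in SHRSP/A3NCrl (10.16), BXH13/Cub (10.22) and BXH2/Cub (10.21). The animals of these strains varied, with an SD up to 1.1 in BXH2/Cub.

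Among copies with low levels, Rps15al4 was at 4.52, 4.58 and 5.05 in HXB21/Ipcv (-1.33 ± 0.15, adjusted p 1.18e-11) and at 4.5, 4.85 and 4.87 in BXH11/Cub (-1.31 ± 0.15, adjusted p 2.47e-11), against a median of 6.14 over strains. Rpl10l, a paralog of Rpl10 known from testis, was at 6.53, 6.63 and 6.68 in MWF/Hsd (1.32 ± 0.16, adjusted p 3.42e-10), above all other strain means, which ran from 4.58 to 6.06. Rps14, Rpl35al1 and Rps10l1 were named after their values had been seen. Rps14, a protein of the small-subunit platform, was called higher in 5 strains, with means of 11.24 to 11.32 against a median of 10.17. These were ACI/SegHsd, LEXF7B/Stm, LEXF10B/Stm, LEXF2C/Stm and WAG/RijCrl, the last with animals at 10.65, 10.67 and 12.4. Rpl35al1 was called higher in LH/MavRrrc (8.68 ± 0.21) and Rps10l1 in BXH12/Cub (4.54 ± 0.22).

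The BUF/MnaMcwi animal held the highest strain mean of 42 members and the lowest of 8, while 10.3% of all genes were highest and 8.26% lowest in it. FXLE13/Stm, also 1 animal, was lowest in 23 members and in 7.89% of all genes. Without BUF/MnaMcwi the strain effect called 23 members (37.1% of all genes) and the comparison of single strains 10 (1.84%).

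The third comparison was between the progenitors of the HXB/BXH family, 3 BN-Lx/Cub and 2 SHR/OlaIpcv animals, in the limma fit over all strains. The SHR/OlaIpcv values are means of 12 libraries (animal 1) and 6 libraries (animal 4) over many batches. BN-Lx/Cub animals 1 and 2 had 1 library each, in batch 3, and animal 3 had libraries in batches 4 and 6. Batches and averaging thus differed between these strains. The comparison called 4 of 94 members (4.26%, background 4.51%), 2 higher in BN-Lx/Cub (background 2.63%) and 2 lower (background 1.87%). In v6 the call was made for 14.9% of members and 2.19% of genes, and in v5 for 8.77% and 4.37%. The animals of v6 and v5 were not matched to those used here. The Rpl37 row was at 10.97, 10.56 and 10.92 in BN-Lx/Cub and at 7.39 and 7.59 in SHR/OlaIpcv (difference 3.33 ± 0.69 SE, adjusted p 0.000434). Its opposed row LOC120093056, named Rpl37 in GRCr8, went the other way, with strain means of 7.75 in BN-Lx/Cub and 10.98 in SHR/OlaIpcv. Rps6, the protein phosphorylated by the S6 kinases, was at 13.09, 12.47 and 12.49 against 12.11 and 12.06 (0.60 ± 0.18, adjusted p 0.036). In the Rpl37 row and in Rps6 every BN-Lx/Cub animal was above every SHR/OlaIpcv animal.

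Rpl39l, a paralog of Rpl39 known from testis, was lower in BN-Lx/Cub, at 2.69, 2.49 and 2.54 against 3.60 and 3.45 (-0.95 ± 0.19, adjusted p 0.000239). It was called lower in the Ensembl tables too, by different amounts (-0.858 in v6 and -0.283 in v5). Rpl10l was at 4.68, 4.68 and 4.73 against 5.57 and 5.45 (-0.81 ± 0.25, adjusted p 0.0362). These groups did not overlap either. Without the first BN-Lx/Cub animal, which was the highest of the 3 for Rps6, both Rps6 (0.395) and Rpl10l (-0.807) lost the call, as both did without either SHR/OlaIpcv animal, and Rpl10l did also without the third BN-Lx/Cub animal (-0.828). With the replicate number as a block they lost it as well, Rps6 at 0.501 and Rpl10l at -0.801. Rps6 was not called in the v6 and v5 tables either (0.444 and 0.106), nor Rpl10l in v5 (-0.0396). The rows named Rpl37 in v6 and v5 were lower in BN-Lx/Cub (-1.87 and -1.86), as was LOC120093056 in v7.1. Which copy the v6 and v5 rows hold was not tested.

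The members fixed for their roles gave smaller differences. Rpl5 and Rpl11, which with 5S ribosomal RNA bind Mdm2, were at 13.39, 12.82 and 12.86 against 12.63 and 12.53, and at 12.39, 11.82 and 11.86 against 11.6 and 11.57 (differences 0.44 and 0.44, adjusted p 0.0817 and 0.106). Rpsa, also known as a laminin receptor, differed by -0.21 ± 0.15, Rps3, at the mRNA entry of the small subunit, by -0.14 ± 0.13, and Rpl10, a protein added late in assembly, by 0.01 ± 0.09. Rplp0, Rplp1, Rplp2, Rps18, Rpl13a and Rpl41 lay between -0.10 and 0.18. Markers of other cells differed between these strains as well: the mean level of 6 blood markers was 11.12 in BN-Lx/Cub and 12.04 in SHR/OlaIpcv, and that of 4 olfactory bulb markers 4.96 and 5.67. Their part in the differences of members was not tested. The median difference over members was 0.08, with 62 members above 0, and over all genes -0.02.

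The fourth comparison asked how members were distributed over the 30 HXB/BXH strains, which carry mixtures of both progenitor genomes. The limma F-test called 11 members (11.7%, background 19.1%), and normal mixtures with equal variance put the strain means of 8 members (8.51%, background 11.7%) into 2 or 3 clusters by the Bayesian information criterion. The order of members and background in the F-test turned when a replicate was left out, with 8.51% to 10.6% of members and 8.04% to 9.31% of genes called. The number with clusters was 14 without replicate 2, 15 without replicate 3 and 5 among genes above the table median. The share of all genes was not computed for these counts, so they have no background. The overlap was 7 members, which is 7 of the 11 called and 7 of the 8 with clusters. The called members with a single cluster included Rpl10l, Rpl39l and Rps4y2.

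For Rpl37, 13 strains lay at 6.06 to 7.47 and 17 at 10.15 to 11.78 (adjusted p 5.88e-19), with SHR/OlaIpcv at 7.49 and BN-Lx/Cub at 10.82. For Rpl7a, 21 strains lay at 11.53 to 12.05 and 9 at 12.33 to 12.95 (adjusted p 3.7e-12), with BN-Lx/Cub at 11.67 and SHR/OlaIpcv at 12.25. For Rpl38, a small protein of the large subunit, 13 strains lay at 11.4 to 11.62 and 17 at 11.68 to 11.9 (adjusted p 5.04e-06), with BN-Lx/Cub at 11.57 and SHR/OlaIpcv at 11.86. Its clusters adjoin, and the criterion improved by 3.36 only. When a gain over 6 was asked, Rpl38 had 1 cluster and 6 members kept more than 1, with no share of all genes computed. In these 3 members 1 progenitor was in or next to each cluster.

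In 4 others both progenitors were nearer to the same cluster. For Rps25, 8 strains were at 9.94 to 11 and 22 at 11.25 to 12.42 (adjusted p 8.51e-15), with BN-Lx/Cub at 12.34 and SHR/OlaIpcv at 11.55. For Rps15al4, 4 strains were at 4.72 to 5.14 and 26 at 5.87 to 6.50 (adjusted p 3.71e-14), with progenitors at 6.42 and 6.12. For Rpl8, BXH2/Cub alone was at 10.76 and the other 29 strains at 12.24 to 12.8 (adjusted p 4.8e-08), with progenitors at 12.23 and 12.26. The criterion chose 3 clusters for Rpl8, of which 2 held a strain, and 2 clusters gave a worse value than 1 (gain -6.8). Rps10l1, a copy of Rps10, had 24 strains at 3.11 to 3.85 and 6 at 4.02 to 4.54 (adjusted p 0.000123), with progenitors at 3.60 and 3.54. The 8th member with clusters, Rpl27-l1, was not called (adjusted p 0.376).

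The fifth question was whether members moved together. Each member was correlated with the mean of the other members, and each other gene with the mean of all 94. Over 74 strain means the median r was 0.568 for members and 0.011 for all genes, with 57 members above 0.5 and 8 under 0. Over deviations of 192 animals from the means of their 69 strains, which do not use strain differences, the median was 0.532 and 0.021, with 57 members above 0.5 and 10 under 0. With batch removed as well, over libraries, it was 0.555. The strain means share batches and the animals share libraries with one another across genes, so these are descriptions. Large-subunit members had medians of 0.585 and 0.556, and small-subunit members 0.532 and 0.507.

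Ranked over strain means, the members closest to the common pattern were Rpl19 (0.838, and 0.844 within strains), Rps23 (0.834 and 0.83) and Rps19l2 (0.833 and 0.854). Next were Rpl13a (0.831 and 0.835), Rps20 (0.824 and 0.867) and Rpl41 (0.808 and 0.862). Rps23 is a protein of the decoding centre, and Rpl41 is the smallest ribosomal protein. Over strain means, those farthest from the pattern were Rpl37 (-0.209 and -0.117), Rps16 (-0.182 and -0.439), Rpl3l (-0.176 and -0.041) and Rpl10l (-0.148 and -0.042). Rpl3l is the paralog of Rpl3 in striated muscle. Within strains the order of members was not the same. Rps16, named here after its values had been seen, was at 10.59 to 12.22 over strains with a within-strain SD of 0.50 and was not called for strain (adjusted p 0.54). Rpl7a was apart from the pattern between strains (-0.03) but not within them (0.508).

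**Figure D3:**
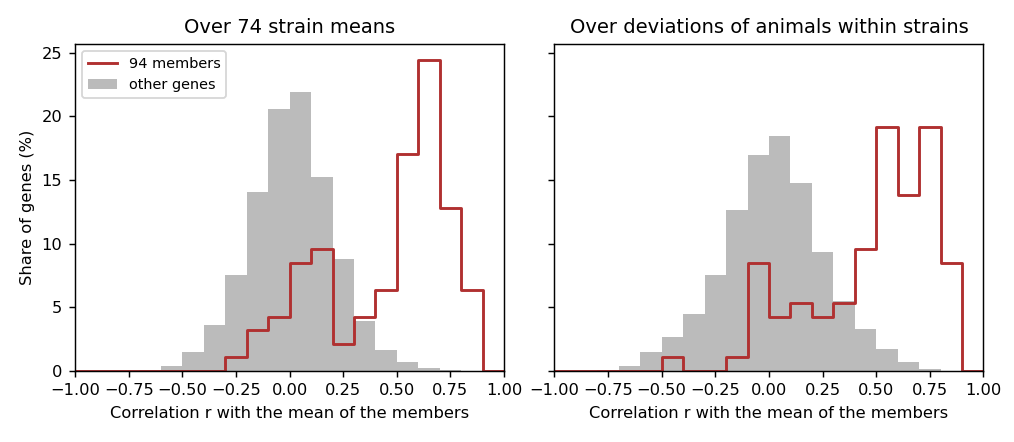
Share of genes (y axis, %) by their correlation with the mean of the members (x axis), over 74 strain means on the left and over deviations of 192 animals on the right. The red line is the 94 members, with a median of 0.568 and 0.532, and the grey bars are the other genes, which centre near 0.

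In size the common pattern was small. The mean over the 94 members was 10.546 in FXLE13/Stm (1 animal), 10.727 at the median strain and 10.865 in FXLE20/Stm (SD 0.0142, n = 3), a range of 0.32. Its SD was 0.071 between strain means and 0.089 for single animals within strains. Strain held 0.488 of its sum of squares, against a median R2 of 0.451 over all genes. The share that arises without a strain effect was not estimated.

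Fau and Rack1, ribosomal proteins with other names, had an r of 0.534 and 0.54 with the members over strain means, and neither was called for strain (adjusted p 0.336 and 0.5), though both were with batch as a covariate. Other lists were less close. The median r was 0.256 over strain means and 0.164 within strains for translation factors and other TOP mRNAs (18 of 19 in the table), among them Eef1a1 at 0.633 and Pabpc1 at -0.389. For ribosome assembly and RNA polymerase I it was 0.01 and -0.07 (17 of 18), with the nucleolar protein Ncl at -0.223. Mitochondrial ribosomal proteins (75) had 0.277 and 0.413, and nuclear subunits of oxidative phosphorylation (79) 0.327 and 0.427. The strain effect called 1 of 18, 3 of 17, 16 of 75 and 7 of 79 genes of these lists, in this order, against 37.3% of all genes. When batch was a covariate they were 12, 10, 37 and 43, against 70.9% of all genes.

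Of all other genes above the table median, those nearest to the mean of the members in both correlations were Ndufa2 (0.797 and 0.782) and Uqcr10 (0.755 and 0.795), both of the respiratory chain, and Rpl37a-ps1 (0.755 and 0.796). The most opposed were Aqr (-0.659 and -0.707), Rprd2 and Huwe1. Markers of cell types were set against the members by the mean level of each list, unlike the medians over genes given above. As medians over single genes, r was 0.391 and 0.459 for microglia markers and -0.101 and -0.255 for neuron markers. The mean level of 4 of 4 microglia markers (9.01 to 9.76 over strains, highest in BUF/MnaMcwi) had r 0.501 over strain means and 0.712 within strains, and that of 5 of 5 neuron markers -0.402 and -0.546. Astrocyte (0.167 and 0.177), oligodendrocyte (0.308 and 0.27), blood (0.209 and 0.224), choroid plexus (0.028 and 0.11), meninges and vessel (-0.058 and 0.217), liver (0.011 and 0.028) and olfactory bulb markers (-0.253 and -0.023) had an r smaller in size. Their part in the common pattern was not tested.

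The last comparison asked how members differed between batches within strains. Batch (from the batch field of the labels) and strain were in 1 limma fit over 213 libraries. The animal was a block (estimated correlation 0.206). The batch effect was called in 25 members (26.6%) against 17.0% of genes. This count rested on 1 library, that of SHR/OlaIpcv animal 1 in batch 11, which had the lowest median of all 214 libraries (8.18). Without it 5 members (5.32%) and 2.9% of genes were called, and 24 members (19.8% of genes) had an unadjusted p under 0.05. Among the 5 were Rps25 (0.00464), Rpl8 (0.0106), Rpl30 (0.0452) and Rplp2 (0.0465). With the library, the 5 with the lowest adjusted p included Rpl8 (0.000344, batch terms over a range of 1.17), Rps26 (0.000762, 1.05), Rps15 (0.000941, 1.42) and Rplp2 (0.00127, 0.99). Also called were the other stalk proteins Rplp0 (0.00437) and Rplp1 (0.0137), and Rpsa (0.00338), Rps3 (0.0279), Rps18 (0.0173) and Rpl37 (0.0225, range 2.29). Rps6, Rpl5, Rpl10, Rpl11, Rpl13a and Rpl41 were not called. Without the library, Rps15 (0.0514), Rps26 (0.0617), Rpl37 (0.073), Rpsa (0.0945), Rplp0 (0.102), Rplp1 (0.191), Rps3 (0.252) and Rps18 (0.274) were not called. Their batch terms still had ranges of 0.389 (Rps3) to 2.38 (Rpl37), against 0.518 and 2.29 for these genes with the library. Batch terms spanned 1 or more in 13 members (13.8%) and 4.47% of all genes with it, and in 8 (8.51%) and 3.41% without it. Outside the name rule, Fau (0.0212) and Rack1 (0.0264) were called with the library included. The excess over the background was absent in some fits: 35.1% of members and 35.4% of genes were called among genes above the table median, 21.3% and 20.9% after centring libraries on their medians, and 1.06% and 1.19% with 1 library per animal.

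The mean batch term over members was -0.20 in batch 11 and -0.16 in batch 8, the lowest, and 0.13 in batch 19 and 0.10 in batch 18, the highest. The median over members was lowest in batch 11 (-0.15) and batch 15 (-0.12), ahead of batch 8 (-0.09). A term above 0 was found for 13 of the 94 members in batch 15, 20 in batch 11, 76 in batch 19 and 80 in batch 3, while between 44.6% and 55.6% of all genes had one in every batch. The median term over all genes lay between -0.03 and 0.02 in every batch. Without the library named above, the mean term over members was -0.08 in batch 11, the lowest was batch 15 (-0.11, with 12 members above 0), and batch 19 (0.11) was again the highest.

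**Figure D4:**
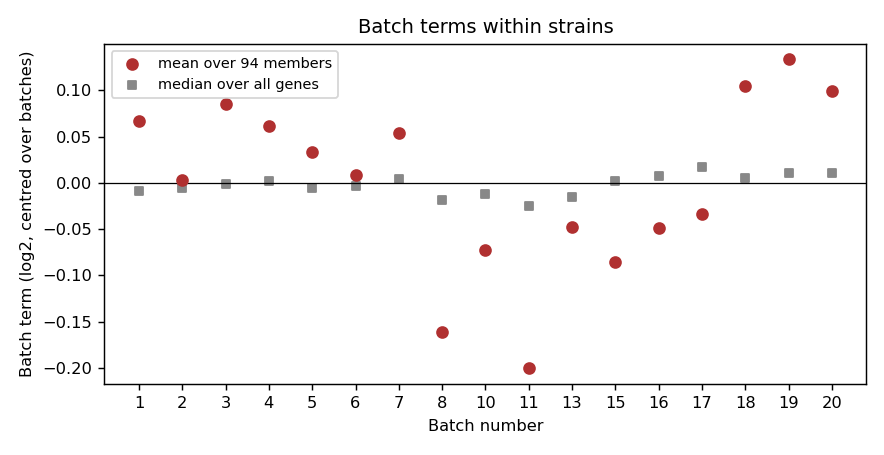
Batch terms (y axis, log2, centred over batches) from the fit with strain and batch, for each of 17 batches (x axis). Red circles are means over the 94 members and grey squares medians over all genes. The members run from -0.20 in batch 11 to 0.13 in batch 19, while the grey squares stay between -0.03 and 0.02. Without 1 library, of SHR/OlaIpcv animal 1, batch 11 is at -0.08.

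Repeat libraries of the same animal gave a view of the batches without strain or animal. SHR/OlaIpcv animal 1 had 12 libraries in 12 batches, in which the mean over members was 10.30 at the lowest (batch 11), 10.63 at the median and 10.80 at the highest (batch 5). In the 6 libraries of animal 4 it was 10.52, 10.62 and 10.80. Across the 12 libraries 27 members (28.7%) spanned 1 or more, against 9.84% of all genes. Without the library of batch 11 these were 11 members (11.7%) and 3.18% of genes, and in animal 4 they were 5 members (5.32%) and 1.19%. Rpl8 was lowest in batch 11, at 11.12, with a median of 12.36 and a highest value of 12.68, and Rps26, Rps15 and Rplp2 were lowest in batch 11 too, with ranges of 1.18 to 1.57. Without that library the ranges were 0.734 for Rpl8 and 0.722 to 0.813 for the other 3.

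Rpl37 varied most among these repeats. In animal 1 it was 5.89 at the lowest (batch 3), 7.11 at the median and 9.67 at the highest (batch 15). In animal 4 it was 6.95, 7.21 and 9.83, again with the highest value in batch 15. LOC120093056 was at 9.46 in that library of animal 4 and at 10.8 to 11.29 in the others, and over the 12 libraries of animal 1 the 2 rows had r -0.734. Libraries of animal 1 thus reached from 5.89, under the lower band of strain means, into the gap between the bands. Without batch 15 the strain effect called 22.3% of members and 31.2% of all genes.

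**Figure D5:**
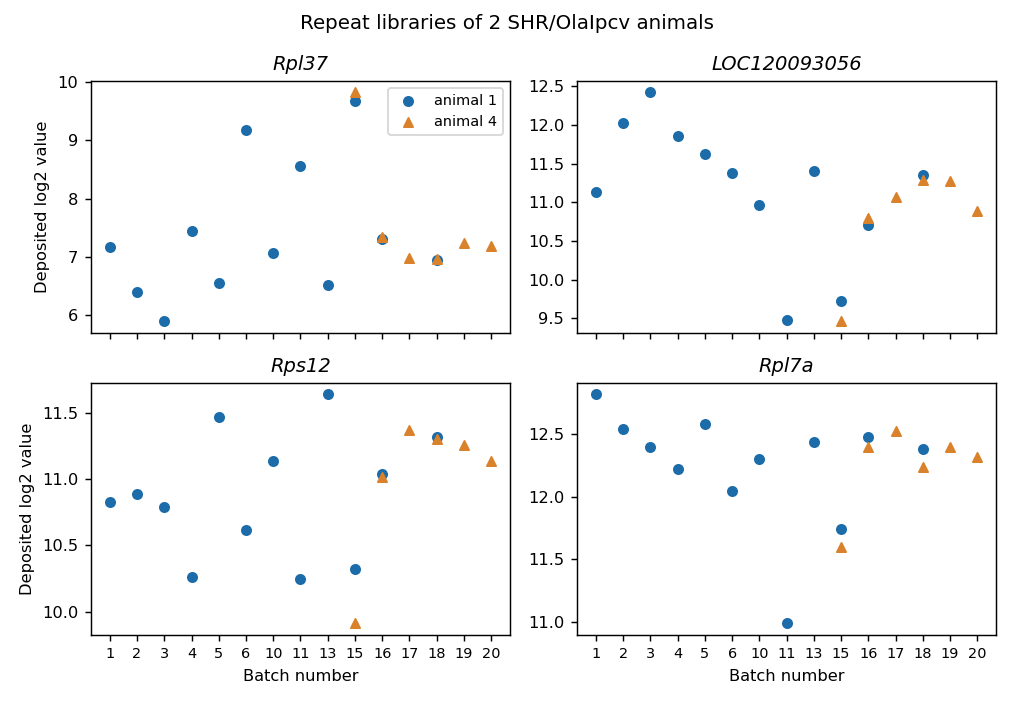
Deposited log2 values (y axes, which do not start at 0) of Rpl37, LOC120093056, Rps12 and Rpl7a in repeat libraries of 2 SHR/OlaIpcv animals, by batch number (x axis). Circles are animal 1 (12 libraries) and triangles animal 4 (6 libraries). In batch 15 both animals are highest for Rpl37, at 9.67 and 9.83.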

How the data were processed

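The members and the gene lists were chosen with earlier results of these data known. Brain RNA of 74 rat strains was taken from the v7.1 RefSeq gene table, whose log2 values were used as deposited. For the earlier v5 tables the study's methods give trimming, alignment to strain-specific rn6 genomes, RSEM quantification, removal of 1 unwanted factor and a regularized log. The sample records name tools in older and newer versions (HISAT2 2.1.0 and 2.2.1, RSEM 1.3.1 and 1.3.3). Which of them made v7.1, and its build, were not established here. Values over 30 occur in 5 cells, none in a member. Spike-ins (73 rows) were left out. Libraries of 1 strain and replicate number were averaged to 1 animal. No counts are given, so depth is unknown, and the number of animals limits precision. Whether animals of a strain came from separate litters is not stated, so p-values measure the spread between these samples.

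Strains were compared with limma 3.58.1 in R 4.3.3 (moderated F and contrasts, 123 residual degrees of freedom, Benjamini-Hochberg at 5% over all genes), HXB/BXH strain means were clustered with mclust 6.1.1 (1 to 3 clusters), and animal was a block in the batch fit (statmod 1.5.0). In 23 libraries the title gives another batch number, and 1 library has no batch. Code was tested on simulated data. Named were the 8 members with the lowest adjusted p for strain, up to 12 pairs of strain and member by size (at most 2 per member), all called between progenitors, the 5 lowest for batch, and fixed lists of core members, paralogs and genes outside the name rule. Some genes that this rule names are not reported here. Alternatives were a batch covariate, a replicate block, median centring, genes above the table median, 1 library per animal, titles' batch numbers, leaving out replicates or 4 strains, and the v6 and v5 Ensembl tables. Leaving out BUF/MnaMcwi, batch 15, the library of SHR/OlaIpcv animal 1 in batch 11, or the animal block, was added after seeing the data. Names and start sequences come from RefSeq (GRCr8), where 93 members matched, 88 by symbol and 5 by an older symbol. By symbol the Rpl37 row was matched to the gene of the LOC120093056 row.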

Additional observations from a re-analysis of the deposited data

Results flagged for a closer look

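In the 6 libraries of SHR/OlaIpcv animal 4, 14 columns (the named members, LOC120093056 and the member mean among them) were examined for a library far from the others by Dixon's ratio of gap to range, and 4 were past its critical value. All 4 were in the library of batch 15. Chance alone marks about 1 in 20 such groups, and the columns are not independent. Rpl37 was at 9.826 in this library and at 6.952 to 7.33 in the other 5. Its opposed row LOC120093056 was at 9.464, with the others at 10.8 to 11.29. Rpl7a was at 11.6, against 12.24 to 12.53. Rps12 was at 9.913, against 11.02 to 11.37. What sets this library apart was not tested.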

How the results depend on the processing

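Of 94 members, the strain effect called 25. It called 72 with batch as a covariate (70.9% of all genes), 39 of 57 in the v5 Ensembl table (63.6%), and 12 to 23 when a replicate was left out (12 without replicate 2, 15 without replicate 1, with 14.3% and 15.9% of all genes). Without the library of SHR/OlaIpcv animal 1 in batch 11 the batch covariate gave 68 (68.2%). Single strains stood apart in 10 members, and in 6 when only genes above the table median were tested (0.71% of genes). When a replicate was left out they did in 8 to 10 (1.66% to 2.21%). The 2 progenitors differed in 4, against 8 with batch as a covariate (16.3% of genes, 16.7% without that library and again 8 members), 2 of the genes above the median (4.5%), 11 of 74 in v6 (2.19%), 0 to 7 when a replicate number was left out (0 without replicate 1, with 4 at an unadjusted limma p under 0.05 and 1 SHR/OlaIpcv animal left) and 2 to 9 when single animals were (9 without BN-Lx/Cub animal 2). With an animal or replicate number left out but 2 SHR/OlaIpcv animals kept, the share of all genes between progenitors moved with the members. It was 1.78% without BN-Lx/Cub animal 1 (2 members), 8.52% without animal 2 (9 members, 9.57%) and 4.66% without animal 3 (4 members). It was 3.91% without replicate 2 (4 members) and 6.19% without replicate 3 (7 members). The HXB/BXH strains gave 11, 6 among genes above the median (14.7%), and 8 to 10 when a replicate was left out (8.04% to 9.31%). The batch effect gave 25 and, with 1 library per animal, 1, when 1.19% of genes were called; without that library alone it gave 5 (2.9%). Tests among genes above the median hold fewer members, 77. Other causes were not tested. For the rows named Rpl37 in v6 and v5, BN-Lx/Cub minus SHR/OlaIpcv was -1.87 and -1.86.

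With the replicate number as a block the counts were 24 for the strain effect (38.2% of genes), 10 for single strains (1.95%), 11 for HXB/BXH (19.1%) and 2 between progenitors (1.97%). Deviations of animals with the same number correlated by 0.013 on average and by -0.0063 with different numbers, with lowest values of -0.721 and -0.744. These values show no pairing of animals by number on average. In the HXB/BXH strains the number went in part with the batch. Blocking or leaving out a number therefore also changed the batches compared. The median r of members stayed at 0.555 to 0.56 over strain means or library residuals and at 0.509 to 0.532 within strains.

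For single members, 112 of 114 values of the strain effect stayed past the threshold, those of the v6 and v5 rows named Rpl37 included; Rpl7a lost it in v6 (0.0796) and v5 (0.1). Of 69 values between progenitors, 49 kept the call, 18 lost it and 2 reversed. Depth is unknown and sets no stated limit here.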
